A study of Mus musculus with 2 samples.

Results

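The 8 genes described here encode the pore-forming subunits of AMPA receptors (Gria1, Gria2, Gria3 and Gria4) and 4 of their auxiliary subunits (Cacng2, Cacng3, Cacng8 and Cnih2). They were taken by symbol from the 19465 genes of the feature table, where each symbol occurred once. The rule used no measured value, but the genes were proposed with earlier results of these data known. The study used brain of male mice aged 6 months, 1 sample labelled G2-3 with A53T alpha-synuclein and 1 labelled wild type (WT). Both were fresh frozen sections profiled with Visium CytAssist, in which pairs of DNA probes are ligated on transcripts in the tissue and counted as unique molecular identifiers (UMIs) on a grid of barcoded spots. The sources used here do not give the promoter that drives alpha-synuclein in the G2-3 line, or the number of animals. The count matrices of the samples were identical, with 0 of 8667725 entries different, so they were used as 1 library and no genotype was compared or assigned. All values below describe 1 section, without replicates.

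AMPA receptors carry most fast excitatory transmission in the brain. Each receptor is an assembly of GluA subunits, and the subunits present set its calcium permeability, kinetics and trafficking. GluA2, whose pore codon is edited in the mRNA, makes the channel nearly impermeable to calcium. Stargazin (Cacng2) and the related proteins of Cacng3 and Cacng8 are transmembrane AMPA receptor regulatory proteins, or TARPs, which bring receptors to the synapse and slow their closing. CNIH2, a cornichon protein, also binds the receptor and slows its closing, and is best known from hippocampal neurons.

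In the section, 2485 spots had at least 500 UMIs and were marked as tissue in the position list of the WT sample. They held 20997947 UMIs (1183 to 80174 per spot, median 6686), of which 24757 came from the 8 genes. The 2 tissue spots left out held 72 and 209 UMIs and no UMI of the 8 genes. Clustering, without the 8 genes or their pathway and cell type lists, gave 15 regions, named here by their leading genes. The C1ql2/Pcdh20 region, with 57 spots and a median of 29690 UMIs, held 8 of 9 dentate gyrus markers at least 2-fold above all other spots and is called the dentate gyrus. The Clec18a/Igfn1 region (150 spots, 6 of 6 upper cortex markers) and the Vxn/Myl4 region (284 spots, 8 of 12 measured deep cortex markers) together form the cortex of the comparisons below. The Gpr161/Fezf2 region, an arc of 172 spots around the dentate gyrus, held 5 of 10 markers of the CA fields and subiculum. The Penk/Adam33 region (168 spots) held 3 of these 10 markers. Between the arc and the dentate gyrus lay the Ddn/Thrsp region, 153 spots with a median of 3325 UMIs. It held all 6 astrocyte markers and 4 of 5 microglial markers at least 2-fold above the rest. The Irx2/Cdh23 region (187 spots) held 6 of 6 pons and hindbrain markers, and the Slc6a3/Th region (85 spots) 7 of 7 midbrain dopaminergic markers. The Klk6/Gfap region (137 spots) was led by white matter genes and the Igf2/Mgp region (179 spots) by meningeal genes.

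**Figure D1:**
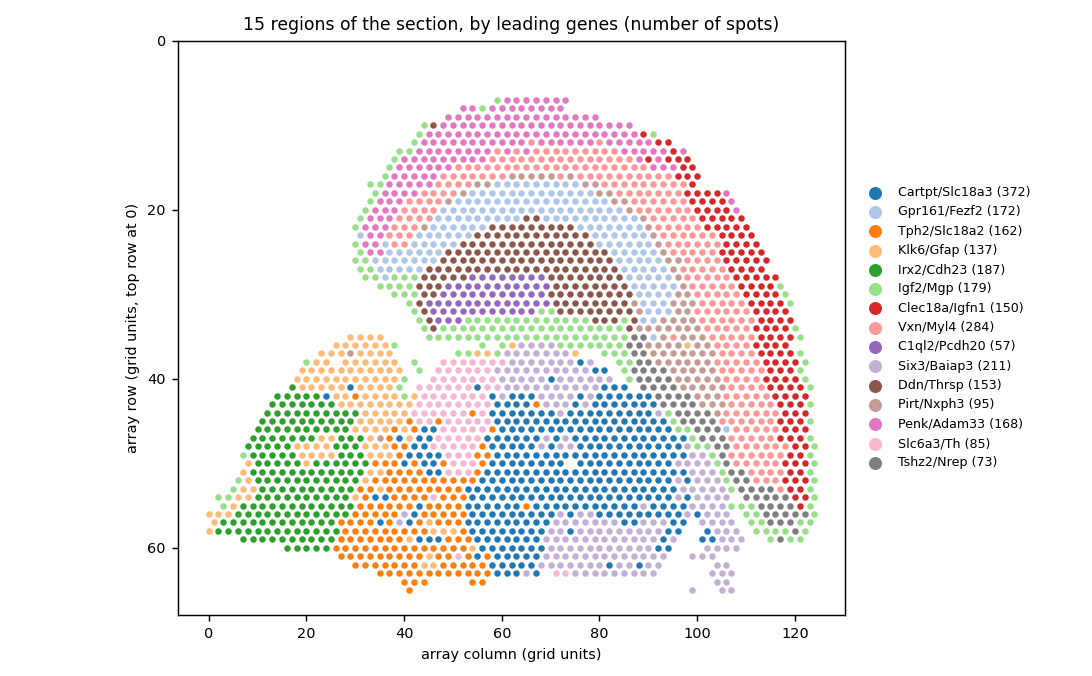
Array positions of the 2485 tissue spots, coloured by region, with the number of spots of each region in the key. The dentate gyrus (57 spots) lies inside the Ddn/Thrsp region and the Gpr161/Fezf2 arc, and the Irx2/Cdh23 region occupies the lower array columns.

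Levels are given as CPM, the UMIs of a gene per 1000000 UMIs of the region, with 95% Poisson intervals that cover counting error only. A gene's probes set how well it is counted, and the probes were not known here, so levels were compared between regions and not between genes. A spot holds several cells or parts of cells, and fewer expressing cells cannot be told apart from less RNA per cell.

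Gria1, which encodes GluA1, the subunit whose delivery to synapses is tied to long-term potentiation, differed most between regions. Its locus is chr11:57011571-57330244 (GRCm38.p6, the mm10 build). The dentate gyrus held 1093 CPM (1045 to 1142, 1964 UMIs) and the Gpr161/Fezf2 arc 546 CPM (514 to 580). Cortex held 300 CPM (285 to 315), and the Klk6/Gfap region 60.2 CPM (38.9 to 88.8). The Irx2/Cdh23 region held 8.57 CPM (5.08 to 13.5), from 18 UMIs in 16 of its 187 spots. The highest region was thus 128-fold above the lowest (95% interval 80.5 to 216). Among 4568 genes with at least 1000 UMIs, 99.4% spanned a smaller range over the regions on the log2(CPM + 10) scale. In the order of the 15 regions, 8 of 14 neighbouring pairs were not apart beyond counting error, most of them in the middle of the order. The top 3 regions (dentate gyrus, arc and Penk/Adam33) each stood above the next, and the Irx2/Cdh23 region stood below all others.

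Within the dentate gyrus, Gria1 was counted in all 57 spots. The lowest spot had 1 UMI (138 CPM), the median spot 30 UMIs (1030 CPM) and the highest 117 UMIs, and the highest level was 1585 CPM. In cortex, the median spot had 3 UMIs (273 CPM) and the highest level was 974 CPM. The highest cortical spots thus lay below the median of the dentate gyrus, while the lowest spots of both regions overlapped.

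Gria2, which encodes GluA2, was spread more evenly than Gria1, over an 8.06-fold range (4.99 to 13.9). The dentate gyrus (330.0 CPM, 304 to 358) and the Gpr161/Fezf2 arc (310.1 CPM, 286 to 336) did not differ beyond counting error. Cortex held 243 CPM, the Slc6a3/Th region 133 CPM and the Irx2/Cdh23 region 56.6 CPM (46.9 to 67.8). The lowest level was in the Klk6/Gfap region, 40.9 CPM from 17 UMIs, next to the Irx2/Cdh23 region and not apart from it. In the order of Gria2 levels, 12 of 14 neighbours were not apart beyond counting error.

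Gria2 is a textbook example of a gene held to neurons by the repressor REST, and its upstream sequence is shown because it was the only one of the members' promoters with a close match to the REST element. RefSeq's promoter table (GRCm38.p6) held entries for 6 of the 8 genes, all but Gria1 and Gria3. The element, RE1, was searched as TTCAGCACC and GGACAGCGC with 2 free bases between them, on both strands, with up to 2 mismatches. Gria2 spans chr3:80681450-80804227 in that annotation, and the start used in the table lies inside this span. The 250 bases before it are chr3:80802836-80803085, read on the minus strand and written 5′ to 3′, with the match in capitals.
Gria2: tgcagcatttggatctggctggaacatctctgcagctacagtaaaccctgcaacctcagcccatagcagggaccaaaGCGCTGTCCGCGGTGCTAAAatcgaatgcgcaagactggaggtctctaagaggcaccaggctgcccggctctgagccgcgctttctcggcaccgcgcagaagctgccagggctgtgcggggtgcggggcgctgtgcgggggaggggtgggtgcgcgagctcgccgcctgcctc
The match lies 154 to 173 bases before the start, reads TTTAGCACCGCGGACAGCGC on the opposite strand, and has 1 mismatch. Of 27025 promoters of the same length, 9 (0.0333%) held the element with up to 2 mismatches and 3 with up to 1. The best match of the other 5 members had 7 to 9 mismatches. The Cacng8 entry held no CG pair, as did 8.26% of all promoters, and it may not lie at the transcription start of the gene, so its part in these counts is uncertain. An E-box (CANNTG) was found once in each of Gria2, Gria4, Cacng2 and Cacng3, and in 66.0% of all promoters. The GC box (GGGCGG) occurred 3 times in Cnih2 and in none of the other 5, against 32.9% of all promoters, and the CRE core (TGACG) in none of the 6, against 17.9%. These are matches of letters, not binding sites.

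Gria3, which encodes GluA3, a partner of GluA2, was highest in the Gpr161/Fezf2 arc, with 160 CPM (143 to 179). Its locus is chrX:41400819-41678601. The Vxn/Myl4, Tshz2/Nrep and Clec18a/Igfn1 regions followed with 133, 132 and 132 CPM and did not differ from each other beyond counting error. The dentate gyrus held 118 CPM (103 to 135), and the lowest level was in the Klk6/Gfap region, 21.7 CPM from 9 UMIs. The dentate gyrus thus ranked below these 4 regions for Gria3, without standing apart from the Clec18a/Igfn1 region beyond counting error, while it ranked first for Gria1 and, not apart from the arc, for Gria2.

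Gria4, which encodes the fast-gating GluA4, had its lowest level where Gria1 had its highest. It lies at chr9:4417893-4796234. Its highest level was in the Cartpt/Slc18a3 region, 70.1 CPM (58.8 to 82.9), a region with 4 of 7 dorsal midbrain and 7 of 7 white matter markers at least 2-fold above the rest. The Tph2/Slc18a2 region followed with 62.0 CPM and the Six3/Baiap3 region with 49.5 CPM. The dentate gyrus held 7.79 CPM (4.26 to 13.1), from 14 UMIs in 13 of 57 spots. With 769 UMIs in all, no 2 neighbours in its order of regions were apart beyond counting error, although the ends of the order differed 9.0-fold (5.18 to 16.9). The 7 GABAergic markers summed to 100 CPM in the dentate gyrus, 1150 CPM in the Cartpt/Slc18a3 region and 1927 CPM in cortex, with none at 0. The sum hides markers that did not run alike. Gad2, Slc32a1 and Pvalb were at least 2-fold above the rest in the Cartpt/Slc18a3 region. In cortex these were Sst in the Vxn/Myl4 region and Vip in the Clec18a/Igfn1 region. The part of these markers in the Gria4 levels was not tested.

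**Figure D2:**
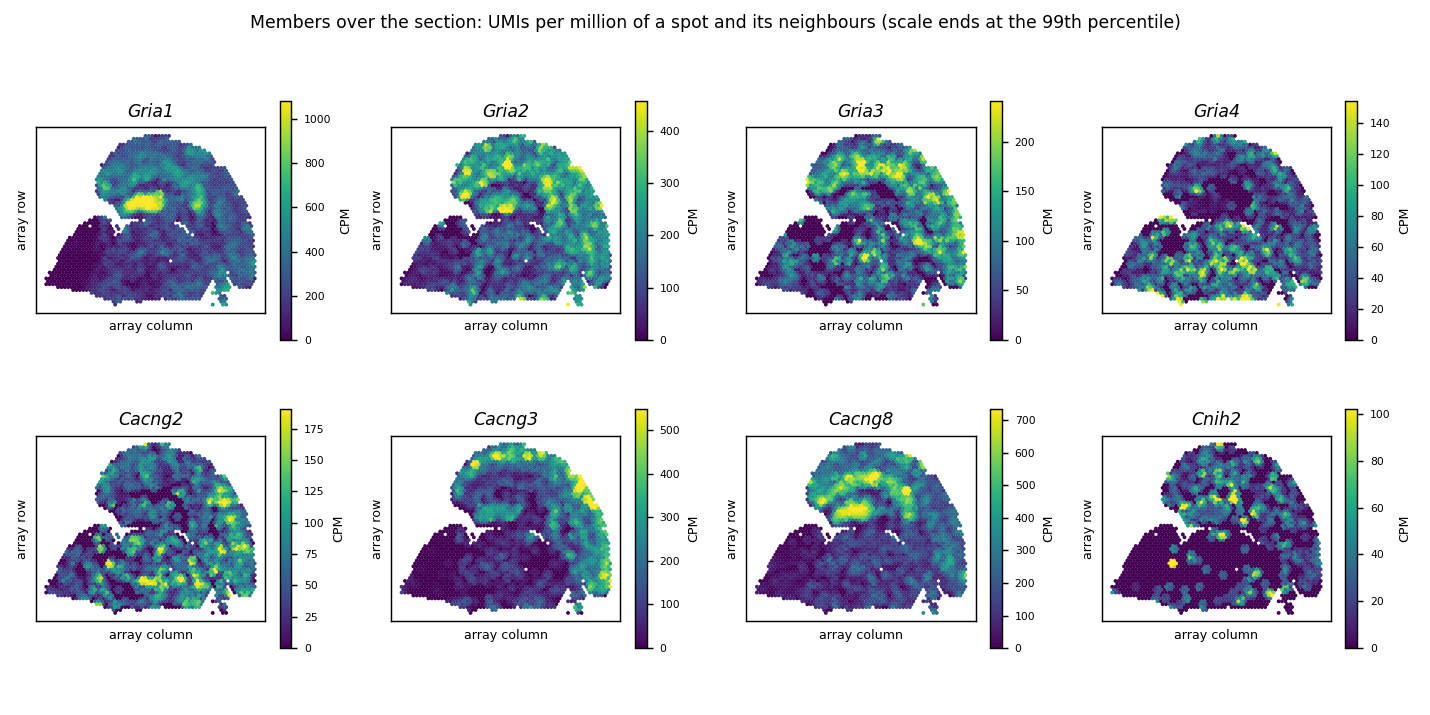
Level of each of the 8 genes over the section, as CPM of a spot and its neighbours, each panel on its own colour scale from 0 to the 99th percentile. Gria1 and Cacng8 are brightest in the dentate gyrus, Cacng8 also in the arc around it, Cacng3 at the cortical surface, and Gria1, Cacng3, Cacng8 and Cnih2 are darkest at the lower array columns.

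The share of each subunit in the summed GluA UMIs of a region is not scaled by the total UMIs of its spots. It can still depend on the cells that the UMIs come from, which were not told apart. Shares are UMI shares and not molar amounts, so they were read across regions only. Over all tissue spots, Gria1 made up 50.2% of 14078 GluA UMIs, Gria2 29.8%, Gria3 14.5% and Gria4 5.46%. In the dentate gyrus the Gria1 share was 70.6% (exact binomial 95% interval 68.8 to 72.3, 2783 UMIs) and the Gria4 share 0.503% (0.275 to 0.843). In the Gpr161/Fezf2 arc, Gria1 made up 52.4% (50.2 to 54.6) and Gria3 reached 15.4%, against 7.62% in the dentate gyrus. The dentate gyrus and the arc were therefore not alike, and the intervals of all 4 shares stood apart between them. The Penk/Adam33 region, which also held markers of the CA fields and subiculum, was not part of this comparison.

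Upper and deep cortex had nearly the same GluA makeup. In the Clec18a/Igfn1 region Gria1, Gria2, Gria3 and Gria4 made up 40.2%, 35.2%, 19.6% and 5.0%, and in the Vxn/Myl4 region 43.3%, 33.6%, 18.1% and 5.0%. The intervals of each share overlapped between these regions. Another makeup was found in the Irx2/Cdh23 region, with Gria1 at 5.36% (3.21 to 8.33, 336 UMIs), Gria2 at 35.4%, Gria3 at 35.1% and Gria4 at 24.1% (19.6 to 29.0). Gria1 took 34.0% or more in every other region, and Gria4 took at most 16.4%, in the Klk6/Gfap and Tph2/Slc18a2 regions.

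In 3 more regions the Gria1 and Gria4 shares lay between these ends. Of these, the Slc6a3/Th region was led by its dopaminergic markers, while the Tph2/Slc18a2 and Cartpt/Slc18a3 regions each held 7 of 7 white matter markers at least 2-fold above the rest, more than of any other class, and are called by their leading genes. In the Slc6a3/Th region the shares were 45.4%, 35.5%, 8.55% and 10.5% for Gria1 to Gria4, from 152 UMIs. The Tph2/Slc18a2 region also held the 3 measured serotonergic markers and 5 of 7 midbrain dopaminergic markers at least 2-fold above the rest. Gria4 reached 16.4% (12.4 to 21.0) in the Tph2/Slc18a2 region and Gria3 9.84%. In the Cartpt/Slc18a3 region Gria4 reached 16.2% (13.8 to 18.9) and Gria3 17.5%. The Gria4 intervals of all 3 regions lay above the 5.46% of the whole tissue, and the Gria3 interval of the Cartpt/Slc18a3 region lay above those of the other two.

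Because GluA2 decides calcium permeability, Gria2 was also counted per 100 Gria1 UMIs. This number was lowest in the dentate gyrus, 30.2 (27.5 to 33.1), and was 56.8 (51.3 to 62.8) in the Gpr161/Fezf2 arc and 80.9 (75.0 to 87.3) in cortex. The Irx2/Cdh23 region had 661 (401 to 1154), from 119 Gria2 and 18 Gria1 UMIs. The Ddn/Thrsp region, at 38.5 (28.4 to 51.5), and the Igf2/Mgp region, at 39.3 (30.9 to 49.7), overlapped the dentate gyrus. The number orders regions by RNA and is no count of receptors.

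**Figure D3:**
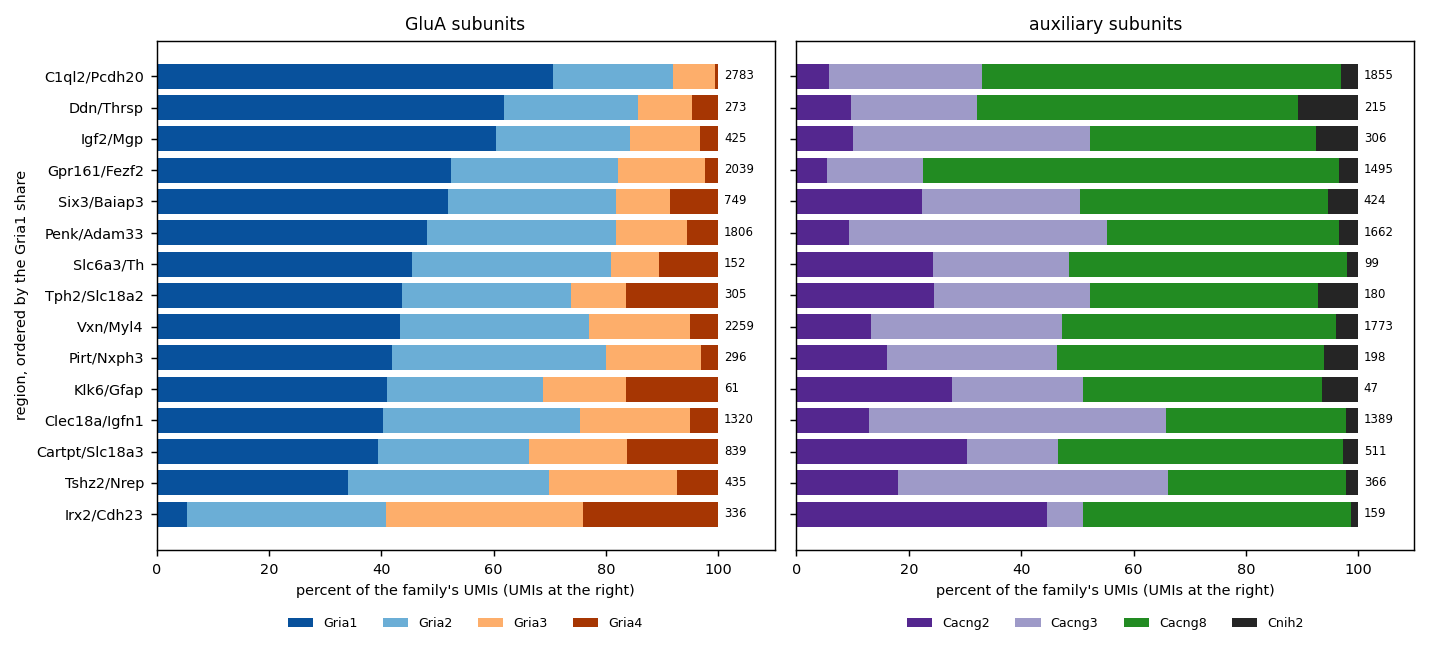
Share of each gene in the GluA UMIs (left) and in the UMIs of the 4 auxiliary subunits (right) in each of 15 regions, ordered by the Gria1 share, with the family's UMIs at the end of each bar. Gria1 goes from 70.6% in the dentate gyrus to 5.36% in the Irx2/Cdh23 region, and Cacng3 is the widest auxiliary segment in the Clec18a/Igfn1 region at 52.8%.

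Of the auxiliary subunits, Cacng8, the main hippocampal TARP, followed Gria1 most closely. It lies at chr7:3394042-3416266. The dentate gyrus held 661 CPM (624 to 699) and the Gpr161/Fezf2 arc 565 CPM (532 to 599), followed by the Penk/Adam33 region with 287 CPM and the Vxn/Myl4 region with 282 CPM. The lowest level was 36.2 CPM in the Irx2/Cdh23 region, an 18.3-fold range (14.5 to 23.3). Between the arc and the dentate gyrus, Cacng8 differed by a log2 ratio of -0.23 (-0.34 to -0.11) while Gria1 differed by -1.0 (-1.11 to -0.89). In the arc, Cacng8 was thus 1.17-fold below the dentate gyrus and Gria1 2.0-fold below it.

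Cacng3, the TARP best known from cortex, peaked in the upper cortex instead. It lies at chr7:122671744-122769393. The Clec18a/Igfn1 region held 373 CPM (346 to 401), the Penk/Adam33 region 320.4 CPM and the dentate gyrus 280 CPM (256 to 305). The Vxn/Myl4 region held 197 CPM, so the upper cortex was 1.90-fold above the deep cortex (log2 ratio 0.92, 0.77 to 1.08). All Clec18a/Igfn1 spots lay at higher array columns, while 54 Vxn/Myl4 spots lay at lower ones. The ratio thus takes in position as well as layer. Only 10 UMIs, or 4.76 CPM, were counted in the Irx2/Cdh23 region. Cacng3 thus differed between the upper and deep cortex regions by more than any GluA gene. Gria1, the most unequal of these, was lower in the upper than in the deep cortex by a smaller amount (log2 ratio -0.24, -0.40 to -0.09), and the intervals of Gria2, Gria3 and Gria4 held 0.

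Cacng2, the gene of stargazin, varied least. It lies at chr15:77991919-78120220, and its levels ran from 90.9 CPM (78.1 to 105) in the Clec18a/Igfn1 region to 29.8 CPM in the Igf2/Mgp region, a 3.05-fold range (2.07 to 4.62). No 2 neighbours in its order were apart beyond counting error. Its log2 range of 1.34 was close to the median of 1.31 over the 4568 genes with at least 1000 UMIs. The most even member among the auxiliary genes was therefore no more variable than a typical measured gene.

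Cnih2 was the rarest member, with 389 UMIs in 313 spots. It lies at chr19:5092868-5098521. Its highest level was in the Ddn/Thrsp region, 41.7 CPM (26.4 to 62.6, 23 UMIs), followed by the dentate gyrus with 31.2 CPM (23.5 to 40.5, 56 UMIs) and the arc with 26.6 CPM. The Slc6a3/Th and Irx2/Cdh23 regions held 2 UMIs each. It was the only member whose highest value was in the Ddn/Thrsp region, although that value and the dentate gyrus value overlapped in their intervals.

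Some auxiliary shares differed between the dentate gyrus, the arc, both cortical regions and the Irx2/Cdh23 region, while those of several other regions overlapped. Between the dentate gyrus and the arc, the Cacng2 shares overlapped (5.88%, 4.85 to 7.04, and 5.42%, 4.33 to 6.69). The Cnih2 shares of these regions also overlapped (3.02%, 2.29 to 3.90, and 3.48%, 2.61 to 4.54). Over all tissue spots, Cacng8 made up 50.6% of 10679 auxiliary UMIs, Cacng3 33.4%, Cacng2 12.3% and Cnih2 3.64%. Cacng8 reached 74.0% (71.7 to 76.2) in the Gpr161/Fezf2 arc and 64.0% (61.8 to 66.2) in the dentate gyrus. With regions drawn by the fixed markers alone, the order turned, with 61.8% in the arc and 63.5% in the dentate gyrus, and the Cacng3 share of the arc went from 17.1% to 27.0%. Cacng8 made up 48.8% (46.4 to 51.1) in the Vxn/Myl4 region and 32.0% (29.6 to 34.6) in the Clec18a/Igfn1 region, where Cacng3 made up 52.8% (50.2 to 55.5). In the Irx2/Cdh23 region Cacng2 made up 44.7% (36.8 to 52.7) and Cacng3 6.29%, from 159 UMIs. Cacng2 stayed between 5.42% and 30.3% in the other 14 regions, with the highest of these in the Cartpt/Slc18a3 region.

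Within the Vxn/Myl4 region the auxiliary makeup changed along the section. Its 54 spots at lower array columns had 60.3% Cacng8 (55.5 to 64.9) and 24.2% Cacng3 (20.3 to 28.5). Its 230 spots at higher columns had 45.0% Cacng8 (42.3 to 47.7) and 37.2% Cacng3 (34.6 to 39.9). The intervals were apart, so a value for cortex as a whole averages over position as well as layer.

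The 4 auxiliary genes together gave 75.9 UMIs per 100 GluA UMIs over the tissue. The Clec18a/Igfn1 region was highest with 105 (97.5 to 114) and the Penk/Adam33 region followed with 92.0 (86.0 to 98.4). The dentate gyrus, although highest in both sums, had 66.7 (62.8 to 70.7), and the Irx2/Cdh23 region was lowest with 47.3 (38.9 to 57.3). The balance between the families thus differed between regions by more than counting error.

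The dentate gyrus was next set against cortex, since the design text names the hippocampus, the cortex and the substantia nigra as the regions of interest. Gria1 was 3.65-fold higher there (log2 ratio 1.87, 1.77 to 1.96) and Cacng8 2.54-fold (1.34, 1.23 to 1.46). Cnih2 (0.64, 0.14 to 1.12) and Gria2 (0.44, 0.30 to 0.59) were higher by less than 2-fold. The intervals of Gria3 (-0.17, -0.40 to 0.06) and Cacng3 (0.08, -0.07 to 0.23) held 0. Cacng2 was lower (-0.44, -0.76 to -0.13), and Gria4 was 4.56-fold lower (-2.19, -3.09 to -1.41). Of the 8 members, 2 were at least 2-fold higher and 1 at least 2-fold lower, against 6.49% and 12.6% of the 8090 genes with at least 100 UMIs over both regions. The members' median log2 ratio was 0.26, beside 0.00012 over all genes. The dentate gyrus held 2.72-fold more UMIs per spot than cortex, and its neuronal marker genes took a smaller share of them (0.678 of the cortical share). Scaling by those genes subtracts their own log2 ratio (-0.56) from that of every gene, and scaling per spot adds that of the UMIs per spot (1.44), so that Gria1 became 3.31 per spot and Cacng2 became positive (0.12 and 1.0). In the lower array columns alone the Cacng2 ratio was 0.08, and the direction of Gria1, Gria2, Cacng8, Cnih2 and Gria4 was the same under every alternative tried.

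Other receptor partners were counted in the same way, beside the 6.49% of all genes at least 2-fold higher and the 12.6% at least 2-fold lower in the dentate gyrus. Of 24 listed auxiliary and complex proteins 19 had enough UMIs, of which 5 were at least 2-fold higher and 4 at least 2-fold lower, with a median log2 ratio of 0.49. Shisa6, whose protein traps receptors at the synapse, led with 9.32-fold (791.9 against 85.0 CPM), and Shisa9, which encodes CKAMP44, was 2.88-fold higher. Syndig1, a synapse differentiation gene, was 16.3-fold lower and Cacng4, another TARP, 11.2-fold lower, from 5 and 6 UMIs in the dentate gyrus. Of the 12 genes of anchoring, trafficking and editing, none was at least 2-fold higher and 2 were at least 2-fold lower, near the shares over all genes, with a median of -0.17. Nsf, the ATPase that binds GluA2, was 1.76-fold higher and the anchoring gene Grip1 1.21-fold higher, with an interval that held 0 (0.27, -0.27 to 0.80). Arc, an activity-induced gene that drives receptor endocytosis, was 25.9-fold lower, and Grip2, which encodes a GluA2 anchoring protein, 17.8-fold lower. Of 6 measured kainate and delta receptor genes, 2 were at least 2-fold higher (Grik4, 3.07-fold, and Grik2, 2.77-fold) and 1 at least 2-fold lower (Grik1, 6.92-fold), with a median of -0.15. Grik3 was 1.78-fold lower.

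In the Slc6a3/Th region, which held 7 of 7 midbrain dopaminergic markers, most members were lower than in cortex. Cacng3 (-2.17, -2.82 to -1.59), Gria3 (-2.05, -2.97 to -1.27), Cnih2 (-2.03, -5.09 to -0.14, from 2 UMIs) and Cacng8 (-1.11, -1.55 to -0.70) were at least 2-fold lower. Gria1 (-0.82) and Gria2 (-0.87) were lower by less, and the intervals of Cacng2 (-0.48, -1.14 to 0.11) and Gria4 (0.14, -0.69 to 0.88) held 0. The members' median was -0.99, beside -0.02 over all genes. Thus 4 of 8 members were at least 2-fold lower and none at least 2-fold higher, against 12.3% and 9.76% of 7470 genes. The 7 oligodendrocyte and white matter markers summed to 12452 CPM there against 2322 CPM in cortex, with none at 0. The 8 neuronal markers summed to 4646 and 4975 CPM, and the 3 glutamatergic markers to 415 and 4942 CPM, with Slc17a8 at 0 in cortex. Their part in these ratios was not tested. UMIs per spot were 0.413 of those in cortex.

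Among the other partners in the Slc6a3/Th region, 1 of 19 auxiliary and complex genes was at least 2-fold higher than in cortex and 11 were at least 2-fold lower, with a median of -1.34, beside 9.76% and 12.3% of all genes. Cacng4 was 2.55-fold and Syndig1 1.68-fold higher, while Nrn1, the gene of the secreted neuritin, was 6.35-fold and Nptx1, a neuronal pentraxin that gathers AMPA receptors, 5.40-fold lower. Of the 12 anchoring, trafficking and editing genes, 1 was at least 2-fold higher (Grip2, 2.12-fold) and 4 at least 2-fold lower, among them Camk2a, a postsynaptic kinase, and Arc, both 9.79-fold. Adarb1, the editing enzyme of the Gria2 mRNA, had a log2 ratio of 0.13 (-0.29 to 0.53). Of 4 measured kainate receptor genes, Grik2 was 2.24-fold higher and Grik3 2.29-fold lower, with Grik4 at 0.11 (-0.79 to 0.90) and Grik5 at -0.83 (-1.19 to -0.49).

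The Irx2/Cdh23 region against cortex was added after its shares had been seen, and it is a description. Cacng3 was 55.8-fold lower (log2 ratio -5.80, -6.86 to -4.92), Gria1 35.0-fold (-5.13, -5.89 to -4.46), Cnih2 21.1-fold (-4.40, -7.46 to -2.51, from 2 UMIs) and Cacng8 7.19-fold (-2.85, -3.20 to -2.51). Gria2 (-2.10), Cacng2 (-1.28) and Gria3 (-1.24) were lower by less. Gria4 had a log2 ratio of 0.12 (-0.28 to 0.50). Of the 8 members, 7 were at least 2-fold lower and none at least 2-fold higher, against 11.2% and 7.24% of 8269 genes, and their median was -2.47 beside -0.02. The 8 neuronal markers summed to 8741 CPM in this region and to 4975 CPM in cortex, the 3 glutamatergic markers to 3780 and 4942 CPM, and the oligodendrocyte and white matter markers to 10762 and 2322 CPM, and their part in the ratios was not tested. The neuronal markers were thus 1.76-fold above cortex, and scaling by them gave -5.94 for Gria1 and -0.70 for Gria4. At a lower clustering resolution of 0.6, the region took in 323 spots, and the Gria1 ratio was -4.12 and its GluA share 10.7%.

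Shisa8, Syndig1, Nsf, Adarb1 and Grik1 had their highest level of the 15 regions in the Irx2/Cdh23 region. Of 21 measured auxiliary and complex genes, 3 were at least 2-fold higher than in cortex and 5 at least 2-fold lower, with a median of -0.39, beside 7.24% and 11.2% of all genes. Shisa8, which encodes CKAMP39, was 25.6-fold higher (128 against 12 UMIs), and Sacm1l, a lipid phosphatase, 2.36-fold. Nptx1 was 125-fold lower, from 4 UMIs, and Cnih3, the other receptor-binding cornichon, 28.1-fold lower. Among the 12 anchoring, trafficking and editing genes, 2 were at least 2-fold higher and 5 at least 2-fold lower, with a median of -0.52. Adarb1 was 3.33-fold higher (409.8 against 123 CPM) and Nsf 2.48-fold higher. Camk2a was 29.2-fold lower and the kinase-anchoring gene Akap5 8.68-fold lower. Of 5 measured kainate receptor genes, Grik1 was 4.28-fold higher, Grik3 had a log2 ratio of -0.52 (-0.92 to -0.14), and Grik5 was 3.06-fold and Grik2 2.23-fold lower.

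**Figure D4:**
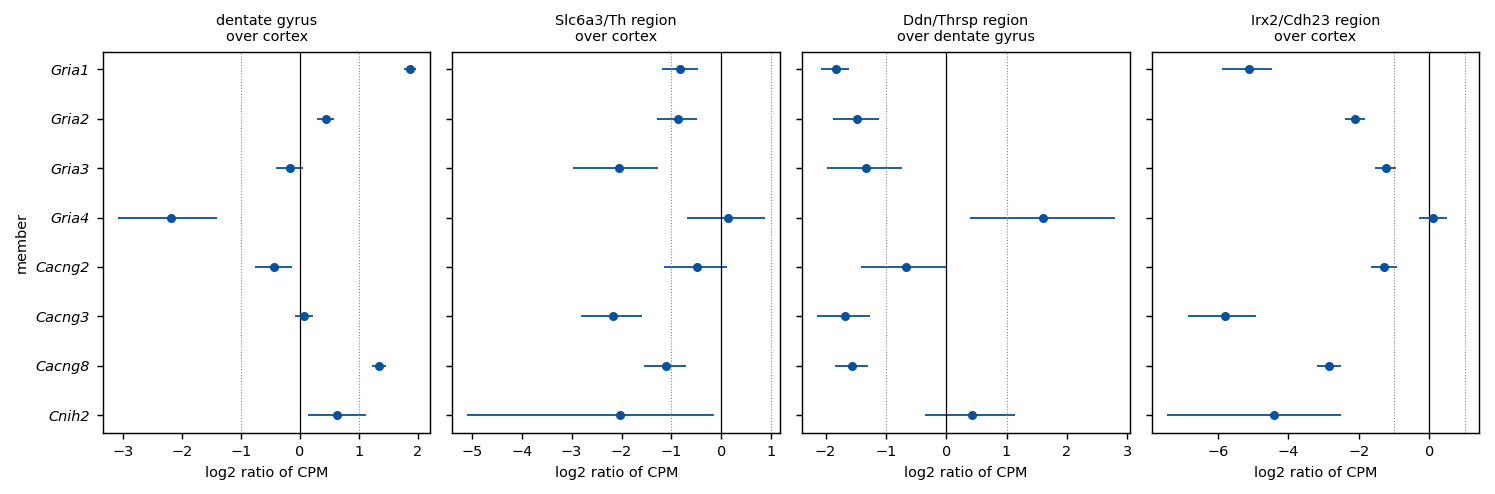
Log2 ratio of CPM for each of the 8 genes in 4 comparisons of regions, with the exact 95% interval of counting error, a line at 0 and dotted lines at 2-fold. Gria1 lies at 1.87 in the first panel and at -5.13 in the last, while Gria4 lies at -2.19 and 0.12.

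Granule cells send dendrites into the tissue around the dentate gyrus, so members were followed from the dentate gyrus outward. No dendrite was identified in these spots, so the values describe distance and region only. Against the dentate gyrus, the Ddn/Thrsp region had lower Gria1 (3.57-fold, log2 ratio -1.83, -2.07 to -1.61), Cacng3 (-1.68), Cacng8 (-1.57), Gria2 (-1.49, -1.88 to -1.11) and Gria3 (-1.32). Cacng2 had a ratio of -0.67 with an interval that held 0 (-1.42 to 0.01). Cnih2 (0.42, -0.35 to 1.14) and Gria4 (1.60, 0.39 to 2.80) did not reach 100 UMIs over both regions. Of the 6 members that did, 5 were at least 2-fold lower and none at least 2-fold higher, against 20.4% and 11.2% of 4775 genes. Their median was -1.53 beside -0.34 over all genes. UMIs per spot were lower in the Ddn/Thrsp region, 0.114 of those in the dentate gyrus, so every member was lower per spot, Gria4 included (-1.53).

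The summed astrocyte markers were 10954 CPM in the Ddn/Thrsp region and 1558 CPM in the dentate gyrus, the microglial markers 736 and 112 CPM, and the neuronal markers 2149 and 3371 CPM, with none at 0. Their part in the lower member levels was not tested. Gria1 made up 61.9% (55.9 to 67.7) of GluA UMIs in the Ddn/Thrsp region, below the 70.6% of the dentate gyrus, and Cnih2 made up 10.7% (6.90 to 15.6) of auxiliary UMIs, above the 3.02% (2.29 to 3.90) of the dentate gyrus. Cnih2 had its largest share of the 15 regions there, from 23 of 215 auxiliary UMIs. The Igf2/Mgp region had 23 of 306 and the Tph2/Slc18a2 region 13 of 180, so this first rank rests on few UMIs. In the order of Cnih2 levels, 14 of 14 neighbouring pairs were not apart beyond counting error.

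Camk2a, Dlg1 and Cacng7 were at least 2-fold higher in the Ddn/Thrsp region than in the dentate gyrus. Dlg4 (log2 ratio 0.34, 0.22 to 0.46) and Epb41l1 (0.41, 0.19 to 0.63) were higher by less, while most other listed partners were lower. Among the anchoring, trafficking and editing genes alone, 5 were higher and 4 lower. Of 9 measured anchoring, trafficking and editing genes, 2 were at least 2-fold higher and 1 at least 2-fold lower in the Ddn/Thrsp region, with a median of 0.20, beside 11.2% and 20.4% of all genes. Camk2a, whose mRNA is known to travel into dendrites, was 3.05-fold higher and Dlg1, which encodes the GluA1-binding SAP97, 2.08-fold higher, while Nsf was 2.84-fold lower and Gripap1, a gene of receptor recycling, 1.76-fold lower. Of 15 measured auxiliary and complex genes, 1 was at least 2-fold higher and 12 at least 2-fold lower, with a median of -1.44. The type II TARP gene Cacng7 was 2.39-fold higher, the hydrolase gene Abhd6 had a ratio of -0.74 (-1.27 to -0.25), Shisa6 was 6.93-fold lower and Nptx1 5.07-fold lower. Of 3 measured kainate receptor genes, Grik5 had a ratio of 0.19 (-0.08 to 0.45), Grik2 was 2.25-fold and Grik4 2.98-fold lower.

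By grid steps from the nearest dentate gyrus spot, Gria1 went from 1093 CPM at 0 steps to 497 CPM at 1 step, 252 CPM at 2 steps and 172 CPM at 3 steps, and then to 304, 348 and 323 CPM at 4, 5 and 6 steps. Cacng8 went from 661 CPM to 271, 175, 123, 179, 358 and 395 CPM over the same steps. Igf2/Mgp spots made up 36.1% of the ring at 1 step and 47.6% at 2 steps. The rings took in 1 spot of the Gpr161/Fezf2 arc at 3 steps, and the arc made up 14.0% of spots at 4 steps, 20% at 5 steps and 25% at 6 steps. Spots of the Six3/Baiap3 region made up 9.30% at 4 steps, 12% at 5 steps and 12.5% at 6 steps, and those of the Slc6a3/Th region 10% at 5 steps and 14.3% at 6 steps. In the Ddn/Thrsp spots alone, Gria1 was 577 CPM at 1 step (23 spots) and 183 CPM at 3 steps (22 spots), and at 5 steps, with 19 spots, it was 229 CPM from 12 UMIs. The lower levels at 2 and 3 steps were thus also present within this region. Its UMIs per spot were 5351 at 1 step and 3472 at 3 steps, and their part was not tested. The Gria1 share stayed between 62.2% and 68.1% from 1 to 4 steps, where the rings were mostly Ddn/Thrsp and Igf2/Mgp spots, and was 46.6% at 5 steps and 49.1% at 6 steps. Cnih2 was 45.2, 36.0 and 43.1 CPM at 1 to 3 steps, from 7 to 9 UMIs a ring, beside 31.2 CPM in the dentate gyrus.

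**Figure D5:**
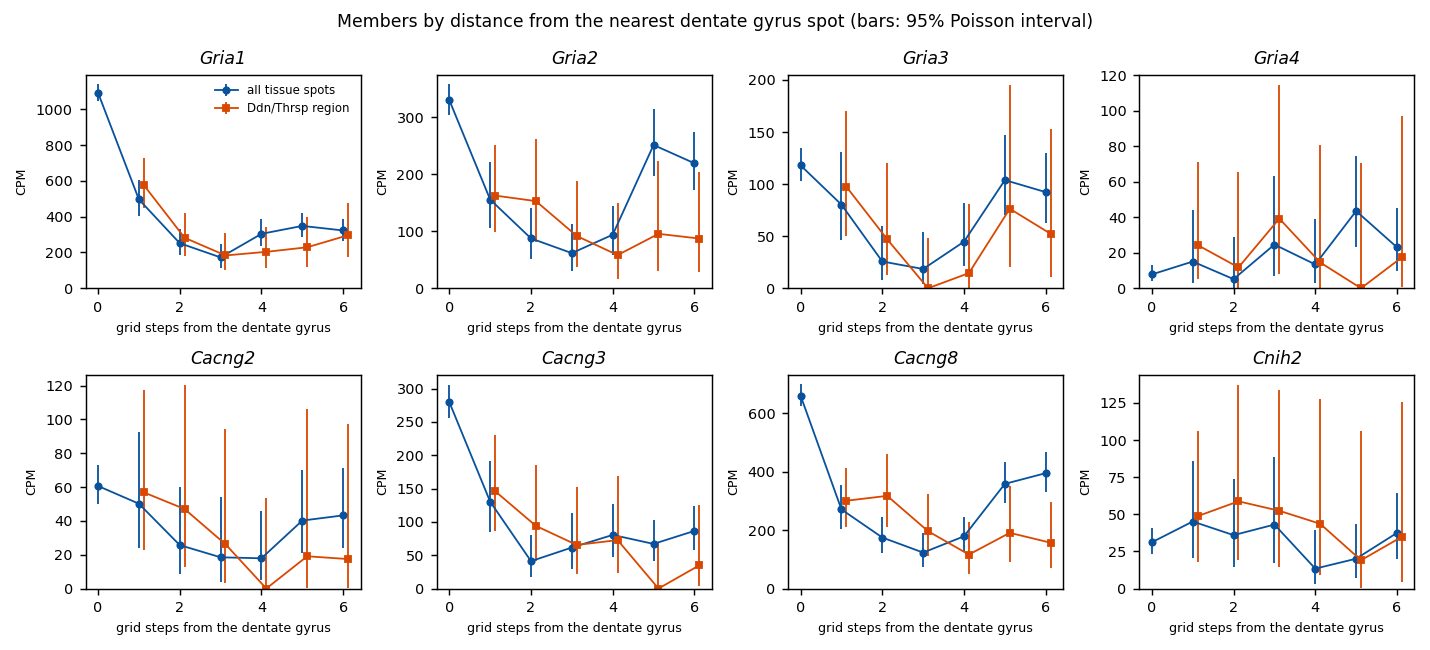
Level of each of the 8 genes by grid distance from the nearest dentate gyrus spot, over all tissue spots (circles) and over the Ddn/Thrsp region alone (squares), with 95% Poisson intervals. Gria1 is 1093 CPM at 0 steps and 172 CPM at 3 steps over all tissue spots, while Cnih2 is 31.2 CPM at 0 steps and 43.1 CPM at 3 steps.

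To compare how often a spot held a member, each spot was thinned to 2000 UMIs. Gria1 was then counted in 82.5% of dentate gyrus spots (70.1 to 91.3, 57 spots), 68.6% of arc spots and 48.3% of cortical spots (43.5 to 53.1). It was counted in 41.9% of Ddn/Thrsp, 39.2% of Igf2/Mgp and 11.2% of Klk6/Gfap spots (5.74 to 19.2), of which 39 of 137 were too shallow and left out. In the Irx2/Cdh23 region the share was 1.60% (0.332 to 4.62, 187 spots), against 8.56% before thinning, at a median of 10962 UMIs. That was below the shares in the white matter and meningeal regions. No region here was known to lack Gria1, so the level of free RNA was not measured, and the few Gria1 UMIs of the Irx2/Cdh23 region cannot be told apart from it. Cacng3 and Cnih2 were counted in 0 of its 187 thinned spots, which allows a share of up to 1.95% by the exact binomial interval. Gria4 was counted in 0 of the 57 thinned dentate gyrus spots, which allows up to 6.27%, and in 5.10% of Klk6/Gfap spots. At this depth Gria4 was therefore not detected in the dentate gyrus.

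Among single spots with at least 10 GluA UMIs, the Gria1 share of the dentate gyrus had a median of 72.5% over 53 spots, and 57.9% and 79.9% at the 10th and 90th percentiles. In cortex the median was 41.4% over 142 spots, with 20.2% and 61.4% at the same percentiles. The 10th percentile of the dentate gyrus thus lay just under the 90th percentile of cortex. The standard deviation over dentate gyrus spots was 10.4 percentage points, beside 8.33 that counting alone would give, and in cortex 15.5 beside 13.8. For Cacng8 in cortex it was 23.0 beside 13.8 over 103 spots, so cortical spots differed from each other in their auxiliary makeup more than in their GluA makeup, relative to counting error.

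Over the 15 regions the levels of some members ran together. On the log2(CPM + 10) scale, Pearson's r was 0.919 between Gria1 and Cacng8, 0.906 between Gria2 and Cacng8 and 0.835 between Gria2 and Gria3. Between Gria4 and the other 3 GluA genes it was -0.365, -0.172 and -0.140. These correlations describe 15 regions of 1 library, which share section, depth and probe chemistry. Among 4568 genes with at least 1000 UMIs, those most like Gria1 were Wscd2 (0.951), Slit1, an axon guidance ligand (0.943), and Dnal4 (0.92). For Gria2 they were the sodium channel gene Scn2a (0.959), Lmtk3 (0.959) and Rgs7bp (0.958), and for Gria3 Trio (0.934), the potassium channel gene Kcnj9 (0.933) and Trim23 (0.927). For Gria4 the highest were lower, G6pc3 (0.885), Coprs (0.849) and Glb1 (0.843), as for Cacng2, with Ralyl (0.842), Fam217b (0.838) and the chloride transporter gene Slc12a5 (0.835). Cacng3 was most like Sirpa (0.959), Dlgap2 (0.959) and Kctd16 (0.956), and Cacng8 like Cdc23 (0.956), Cnih3 (0.955) and Mrtfa (0.946). Cnih2 was most like Jph4 (0.913), Chd3 (0.895) and Thra (0.891).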

How the data were processed

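The deposited matrix holds whole-number UMI counts, unnormalized, with a row per gene and a column per barcode. Per the file headers it was written by Space Ranger 3.1.1. The mm10 build is named in the submitters' processing notes. The sources used here do not give the probe set. The members and lists were chosen with earlier results of these data known.

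Counts of the 8 genes were read from the 1 distinct matrix, over WT-list tissue spots with at least 500 UMIs. Spots were clustered with scanpy 1.11.5 (counts scaled to 10000 per spot, logged, 2000 variable genes seen in at least 10 spots, scaled to unit variance and clipped at 10, 30 components, 15 neighbours, Leiden resolution 1, seed 0). Scaling was added after unscaled clusters had joined the dentate gyrus with the spots around it. A set of 93 genes (members, pathway lists, cell type lists) was left out of the variable genes. A spot can hold several cells, so no doublet caller or deconvolution was run. A region took an anatomical name from the marker class with most markers at least 2-fold above all other spots (CPM plus 10).

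Counts were summed per region. Intervals (95%) are exact Poisson, Clopper-Pearson or conditional ones (scipy 1.17.1) and cover counting error only. With 1 library no p-value or standard error was computed. A count of 0 was set to 3 in ratios over all genes. Ratios over all genes used those with at least 100 UMIs over both regions. The ratio code was tested on simulated data. Named were all members, the 2 highest and 2 lowest ratios of each pathway list, and the 3 genes most like each member. The alternatives were other resolutions, fixed markers alone, the G2-3 position list, a minimum of 2000 UMIs, thinning, spot means, lower or higher array columns, other scalings, unscaled or unrestricted variable genes and a minimum of 20 UMIs for ratios.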

Additional observations from a re-analysis of the deposited data

Results flagged for a closer look

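All 8 genes were also counted on barcodes that the WT position list marks as outside tissue, above the 3 counts that a count of 0 allows. There were 145 UMIs of Gria1, 107 of Gria2, 48 of Gria3 and 20 of Gria4, and 33 of Cacng2, 110 of Cacng3, 97 of Cacng8 and 10 of Cnih2. These came from 235 barcodes with 697435 UMIs and a median of 2507. The G2-3 list marks 119 of these barcodes as tissue. Their Gria1 share of GluA UMIs was 45.3% (exact binomial 95% interval 39.8 to 50.9), beside 50.2% on tissue spots.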

How the results depend on the processing

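The Gria1 share of GluA UMIs stayed between 69.7% and 70.7% in the dentate gyrus over 10 alternatives, and between 41.4% and 46.0% in cortex over 11. The share in the Irx2/Cdh23 region was 10.7% at resolution 0.6. The cortical Cacng3 share was 24.2% in the lower array columns, which held no Clec18a/Igfn1 spot, and 45.2% in the higher ones. The Gria1 log2 ratio of dentate gyrus over cortex was 1.71 with regions by markers alone, 1.59 in the lower columns, 1.59 with unscaled variable genes, which joined the dentate gyrus and the Ddn/Thrsp spots, 2.43 per neuronal marker UMI and 3.31 per spot. That of the Irx2/Cdh23 region over cortex was -4.12 at resolution 0.6 and -5.94 per neuronal marker UMI.

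Among ratios whose counting interval excluded 0, directions reversed for Cacng2 in dentate gyrus over cortex (0.080 in the lower columns, 0.12 per neuronal marker UMI, 1.0 per spot) and for Gria4 in the Ddn/Thrsp region over dentate gyrus (-1.53 per spot). Among those whose interval held 0, the sign turned for Gria3 (0.39 per neuronal marker UMI, 1.27 per spot) and Cacng3 (-0.05 by markers alone, -0.21 with unscaled variable genes) in dentate gyrus over cortex, Gria4 (-1.13 per spot) and Cacng2 (0.04 in the lower columns) in the Slc6a3/Th region, Cnih2 in the Ddn/Thrsp region (-2.71 per spot) and Gria4 in the Irx2/Cdh23 region (-0.03 at resolution 0.6, -0.70 per neuronal marker UMI). Scaling per spot or per neuronal marker UMI shifts all genes of a comparison alike. For the other settings the cause was not tested.

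With a minimum of 20 UMIs, which lets in more genes, those at least 2-fold higher and lower numbered 874 and 1851 for dentate gyrus over cortex, 1610 and 1714 for the Ddn/Thrsp region, and 1110 and 1451 for the Irx2/Cdh23 region. Those higher in the Slc6a3/Th region numbered 1728. The counts at 100 UMIs were 525 and 1019, 535 and 975, 599 and 929, and 729.

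Of 320 recomputed log2 ratios 258 stayed within their counting interval, as did 178 of 196 GluA shares and 164 of 192 auxiliary shares. Thinning to 2000 UMIs took the most shares outside, 8 of 20 GluA and 11 of 20 auxiliary ones. The dentate gyrus Cacng3 share, for example, went from 27.1% to 33.6%. Thinning also left fewer UMIs, 150 instead of 2783 GluA UMIs in the dentate gyrus. The minimum of 2000 UMIs left all 20 shares of each family within their intervals, but it could hardly move them. It left out 0 spots of the dentate gyrus, the arc and the Irx2/Cdh23 region, 1 of cortex and 5 of the Ddn/Thrsp region. These shares are among those counted above as within their interval. Resolution 0.6 gave no Ddn/Thrsp or Slc6a3/Th region, markers alone no Ddn/Thrsp region, and the higher columns under 10 spots of the dentate gyrus and the Irx2/Cdh23 region. Cnih2 and Gria4, with 389 and 769 UMIs, were limited most by depth.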
